A study of Mus musculus with 35 samples.

Results

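The heat shock chaperones described here are 10 mouse genes chosen by symbol, Hspa1a, Hspa1b, Hspa8, Hspa5, Hsph1, Dnajb1, Hsp90aa1, Hsp90ab1, Hspd1 and Hspe1. Each was found once among the 38924 genes of the deposited count table, and all 10 passed the low-count filter in each of 10 comparisons. Hspa1a and Hspa1b are near-identical copies, so their counts were also added up and tested as 1 sum. Chaperones hold, fold or refold other proteins. When unfolded protein builds up in a cell, the heat shock factor HSF1 binds heat shock elements, which are arrays of the unit GAA in alternating orientation, and raises transcription of the inducible chaperones. Hsp70 proteins bind exposed stretches of a client protein in a cycle that J-domain proteins start and nucleotide exchange factors end, Hsp90 proteins act later on clients such as kinases, and the Hsp60 and Hsp10 chaperonin works inside mitochondria. Activated T cells are known to make more heat shock proteins.

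All 10 are protein-coding genes, and their positions in the GENCODE M21 annotation of GRCm38 follow. Of the cytosolic Hsp70 genes, Hspa1a on chromosome 17 at 34969190 to 34972156 (minus strand) and Hspa1b on chromosome 17 at 34956436 to 34959238 (minus strand) are neighbours in the major histocompatibility complex, and Hspa8 on chromosome 9 at 40800984 to 40810087 (plus strand) lies apart. The other Hsp70 family members are Hspa5 on chromosome 2 at 34771970 to 34777547 (plus strand) and Hsph1 on chromosome 5 at 149614287 to 149636376 (minus strand), and the J-domain partner is Dnajb1 on chromosome 8 at 83608193 to 83612653 (plus strand). The Hsp90 genes are Hsp90aa1 on chromosome 12 at 110690605 to 110702728 (minus strand) and Hsp90ab1 on chromosome 17 at 45567775 to 45573271 (minus strand). The mitochondrial chaperonin genes are Hspd1 on chromosome 1 at 55077835 to 55088243 (minus strand) and Hspe1 on chromosome 1 at 55088132 to 55091307 (plus strand), which share a promoter region.

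RNA of CD8 T cells from brain or spleen of C57BL/6 mice was sequenced in 35 libraries of 7 groups. The cells had been sorted as CD3e+CD8+CD44hiCD62Llo, the surface type of antigen-experienced effector memory T cells. Stimulated cells were held for 2 h with PMA, a phorbol ester that activates protein kinase C, and ionomycin, a calcium ionophore, which together activate T cells without the T cell receptor. The groups were stimulated brain cells of aged females (n = 5), unstimulated brain cells of aged females (n = 5), stimulated brain cells of aged males (n = 4), unstimulated brain cells of aged males (n = 6), unstimulated brain cells of young males (n = 5), stimulated spleen cells of aged males (n = 5) and unstimulated spleen cells of aged males (n = 5). The labels name no mutant allele, give no age in months, and do not state how cells were released from either tissue or how unstimulated cells were held between sorting and lysis. Whether each library came from its own mouse is not stated either, and the spread behind every p-value is the spread between libraries, part of which may be technical.

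Library totals ran from 1.16 M to 24.97 M counts. Some libraries stood apart. Mitochondrially encoded genes took 42.1% to 69.7% of counts in stimulated female brain and 38.5% to 67.5% in stimulated male brain, against 8.28% to 20.8% in the other groups. All 7 CD8 T cell markers examined (Cd8a, Cd8b1, Cd3e, Cd3d, Cd3g, Trac and Cd44) had counts in every group, but their summed level was 108 to 485 CPM (counts-per-million, scaled between libraries) in stimulated male brain, against 2969.8 to 4686 CPM in unstimulated aged male brain. It was 684 to 1389 CPM in stimulated and 1774 to 2750.0 CPM in unstimulated female brain, and 1204 to 2128 CPM in stimulated and 1580.4 to 2055 CPM in unstimulated spleen. The 12 markers of other brain cells summed to 82.6 to 3055 CPM in stimulated male brain and 159 to 712 CPM in stimulated female brain, against 12.4 to 783 CPM in unstimulated aged male and 0.8497 to 21.4 CPM in unstimulated female brain. In stimulated male brain 4 of the 12 had counts, and Mog, Snap25, Syt1, Gfap, Aqp4, Cldn5, Folr1 and Kl were at 0; in stimulated female brain 9 had counts, and Mog, Aqp4 and Folr1 were at 0. The 9 microglia markers summed to 0 to 3.05 CPM in stimulated male brain, where 2 of them had counts, and to 0 to 238 CPM in stimulated female brain, against 1.94 to 439 CPM in unstimulated aged male and 4.33 to 95.8 CPM in unstimulated female brain. The part that these shifts have in the results on stimulated brain was not tested. In bulk RNA, fewer cells of a type and less RNA per cell cannot be told apart. The 10 spleen libraries and stimulated female brain replicates 26 and 27 have titles without hyphens, so tissue and title style cannot be told apart in the comparisons of brain with spleen.

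The upstream sequences show how alike the copies are, and where the members carry the heat shock element. RefSeq start-site windows (GRCm38.p6) were at hand for 7 of the 10 members, the others being Hsp90aa1, Hsp90ab1 and Hspa8. The 250 bases before the start sites of the copies follow, Hspa1a at chr17:34972157-34972406 and Hspa1b at chr17:34959239-34959488, both on the minus strand of chromosome 17. Capitals mark the inverted GAA pair GAANNTTC, which lies 104 to 97 bases before each start.
Hspa1a: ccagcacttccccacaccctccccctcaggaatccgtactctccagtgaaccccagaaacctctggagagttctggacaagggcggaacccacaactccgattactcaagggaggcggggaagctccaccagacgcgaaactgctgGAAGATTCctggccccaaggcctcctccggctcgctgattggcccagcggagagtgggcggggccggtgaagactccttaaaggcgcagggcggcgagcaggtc
Hspa1b: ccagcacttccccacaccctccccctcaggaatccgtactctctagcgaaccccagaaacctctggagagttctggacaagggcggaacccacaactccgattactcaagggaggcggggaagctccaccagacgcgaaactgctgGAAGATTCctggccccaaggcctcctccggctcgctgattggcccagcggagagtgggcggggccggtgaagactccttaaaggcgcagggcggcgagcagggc
Over these 250 bases the copies differ at 3 positions, counted from 1 at the 5′ end with the base of Hspa1a first: C44T, T47C and T249G. GAANNTTC, searched on both strands, occurs in 7.86% of the 32851 promoter windows of 300 bases, and either arrangement of 2 units (GAANNTTC or TTCNNGAA) in 15.1%, so a single pair is common. The transcripts, of 2967 bases for Hspa1a and 2803 bases for Hspa1b in GENCODE M21, were 91.4% identical over 2729 aligned bases. Of all 50-base stretches of the Hspa1a transcript 58.8% occur exactly in that of Hspa1b, and 62.3% the other way, so many reads fit both copies, and RSEM divides such reads between them by its model.

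Longer arrays of exact units were found in 3 members. Arrays of 3 alternating units (GAANNTTCNNGAA or its reverse complement TTCNNGAANNTTC) occur in 0.603% of windows, and in those of Hspd1, Hspe1 and Hsph1. The Hspe1 site (chr1:55088053-55088082, plus strand, 89 to 72 bases before the start) holds 18 bases of alternating units, and the same bases lie in a window of Hspd1, whose gene runs the other way. The Hsph1 site (chr5:149636287-149636316, minus strand) lies 36 to 48 bases after a start. Hspa5, which encodes the Hsp70 of the endoplasmic reticulum (ER), holds instead the ER stress element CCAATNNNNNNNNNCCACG (chr2:34772020-34772049, plus strand, 65 to 47 bases before the start), found in 0.119% of windows. Capitals mark these motifs.
Hspe1: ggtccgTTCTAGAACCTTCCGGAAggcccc
Hsph1: agtaaaatgctgcagaTTCTGGAAAGTTCt
Hspa5: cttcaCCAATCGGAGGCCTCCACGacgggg
The windows of Dnajb1 held none of these letters. Only units that read exactly GAA or TTC were searched, so an array with a changed base would be missed. A match describes the sequence and does not show a bound site.

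Levels of different genes were compared per length, as the authors' TPM (transcripts-per-million), within each group. Mitochondrially encoded genes count in the TPM total, so TPM of stimulated brain are not set against those of other groups. Hspa8, the constitutive Hsp70 of the cytosol, had the highest median of the 10 members in 6 of 7 groups, with 6278 TPM in stimulated spleen, 2889 TPM in unstimulated spleen and 5719 TPM in unstimulated aged male brain. In stimulated female brain Hspa1b had the highest, and in both stimulated brain groups the summed copies stood above Hspa8. Their median was 5514 TPM in stimulated female brain, where Hspa8 had 1909.5 TPM, and 2676 TPM in stimulated male brain, where Hspa8 had 1671 TPM. In unstimulated spleen the summed copies had a median of 47.5 TPM. Of the cytosolic Hsp90 pair, the inducible Hsp90aa1 had the higher median in all groups but unstimulated spleen, where Hsp90aa1 had 557 TPM and the constitutive Hsp90ab1 712 TPM. In stimulated spleen Hsp90aa1 had 2839 TPM and Hsp90ab1 1257 TPM. Dnajb1, Hsph1 and Hspd1 were lower, with group medians of at most 351 TPM for Dnajb1, 348 TPM for Hsph1 and 146 TPM for Hspd1.

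The chaperones took a large part of the non-mitochondrial counts in stimulated cells. The 10 members together held 7.42% ± 1.63 (SD, n = 5) of non-mitochondrial counts in stimulated and 3.10% ± 0.715 (n = 5) in unstimulated female brain. The share was 5.57% ± 1.34 (n = 4) in stimulated and 2.44% ± 0.274 (n = 6) in unstimulated aged male brain, and 4.66% ± 0.762 (n = 5) in stimulated and 1.18% ± 0.135 (n = 5) in unstimulated spleen. In each of these pairs every stimulated library lay above every unstimulated one. By share of all counts, mitochondrial ones included, the brain pairs overlapped. That share was 1.73% to 4.29% in stimulated and 2.06% to 3.54% in unstimulated female brain. It was 1.38% to 4.39% in stimulated and 1.90% to 2.48% in unstimulated aged male brain. In spleen the pair stayed apart, at 2.88% to 4.60% in stimulated and 0.883% to 1.13% in unstimulated cells. Hspa1a and Hspa1b alone held 3.48% to 6.72% in stimulated female brain, 2.08% to 3.17% in stimulated male brain and 0.477% to 1.48% in stimulated spleen, against 0.00640% to 0.0395% in unstimulated spleen. Hspa8 made up 63.0% ± 1.21 of the members' counts in unstimulated spleen and 61.5% ± 6.07 in unstimulated aged male brain, but 21.6% ± 3.46 in stimulated female brain.

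**Figure D1:**
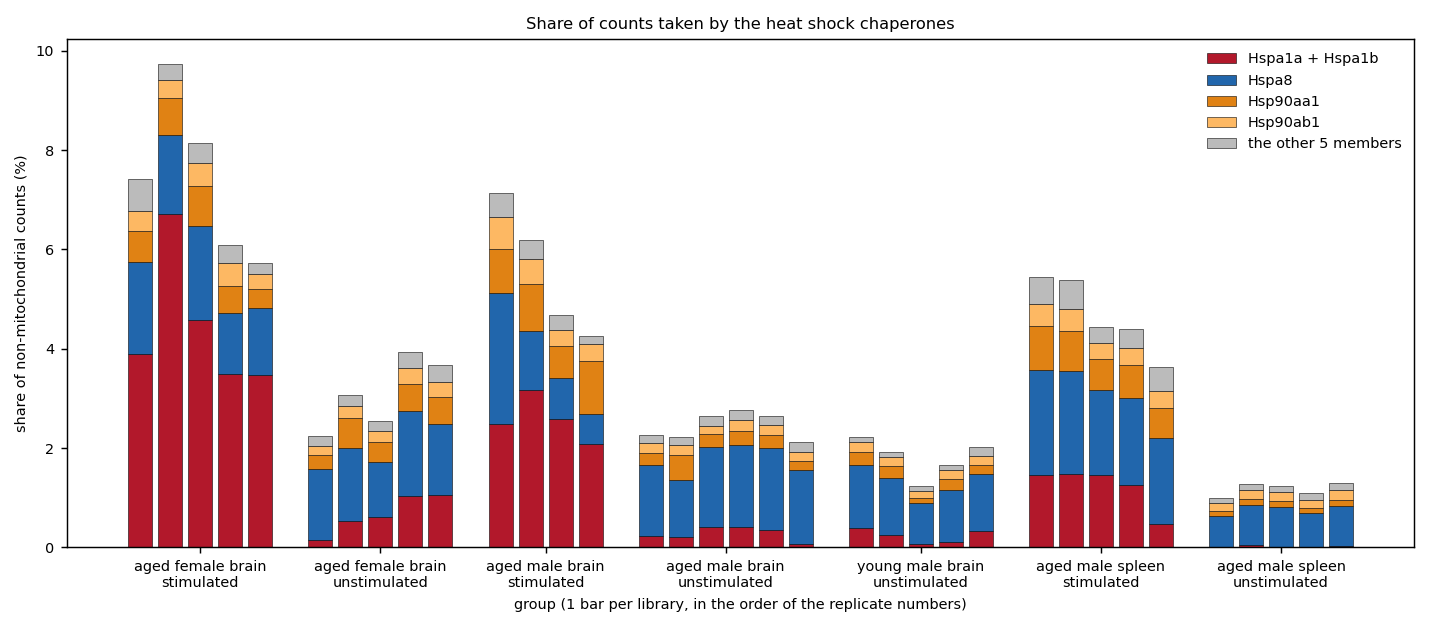
Share of non-mitochondrial counts (%, vertical axis) held by the summed copies Hspa1a and Hspa1b, by Hspa8, Hsp90aa1, Hsp90ab1 and by the other 5 members, with 1 bar per library, grouped by the 7 groups. The red segments of the copies are thickest in stimulated female brain, where they reach 6.72%, and are at most 0.0395% in unstimulated spleen.

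Across the 7 groups the summed copies had their highest level in stimulated female brain and their lowest in unstimulated spleen. The libraries had 31386, 46083, 38108, 22093 and 24869 CPM in stimulated female brain and 927, 3376, 4386, 6559.6 and 6670.4 CPM in unstimulated female brain. Stimulated male brain had 18663, 15650.5, 16204 and 7847 CPM, unstimulated aged male brain had 639, 2604 and 3952 CPM as lowest, median and highest, and young male brain had 4305, 3581, 714, 995 and 2856 CPM. Stimulated spleen had 11633, 12294, 11221, 9506 and 4181 CPM and unstimulated spleen 33.4, 212, 72.2, 54.2 and 189 CPM. In the order of means, stimulated female brain lay wholly above the next group, stimulated male brain, and unstimulated spleen lay wholly below the group before it. By share of non-mitochondrial counts, too, every stimulated female brain library lay above every stimulated male one, but by share of all counts they overlapped, at 1.05% to 2.29% in stimulated female and 0.676% to 1.53% in stimulated male brain. The neighbours in between overlapped: stimulated male brain with stimulated spleen, stimulated spleen with unstimulated female brain, and the 3 unstimulated brain groups with each other.

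The other members had another order of groups, although Hspe1 shared its highest and its lowest group with the copies. By mean CPM, Hsp90aa1, Hsp90ab1, Dnajb1, Hsph1, Hspa8 and Hspa5 were all highest in stimulated spleen and lowest in unstimulated spleen. Hspa8 averaged 15158 ± 1881 CPM in stimulated spleen, 13454 ± 1196 CPM in unstimulated aged male brain, 11773 ± 3444 CPM in stimulated female brain, 11241 ± 3419 CPM in young male brain, 9204 ± 1151 CPM in unstimulated female brain, 8293 ± 7854 CPM in stimulated male brain and 3908 ± 490.5 CPM in unstimulated spleen (SD, n as above). Each group overlapped the next in this order, and stimulated male brain, at 2306 to 19846 CPM, spanned the range of all the others. Hsp90aa1 averaged 5746 ± 1026 CPM in stimulated spleen and 619.6 ± 79.7 CPM in unstimulated spleen, with the 5 brain groups between them, from 4833 ± 1246 CPM in stimulated male brain to 2110.0 ± 898 CPM in young male brain. Neighbouring groups overlapped except that all unstimulated spleen libraries lay below all libraries of the other groups. The same gap below the other groups, without overlap, was seen for Hsp90ab1. Hspd1 was highest in stimulated spleen (319 ± 78.1 CPM) and lowest in stimulated male brain (13.8 ± 20.4 CPM), and all neighbouring groups overlapped. Hspe1 was highest in stimulated female brain (431 ± 562 CPM) and lowest in unstimulated spleen (92.9 ± 11.2 CPM), and all its neighbouring groups overlapped too.

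**Figure D2:**
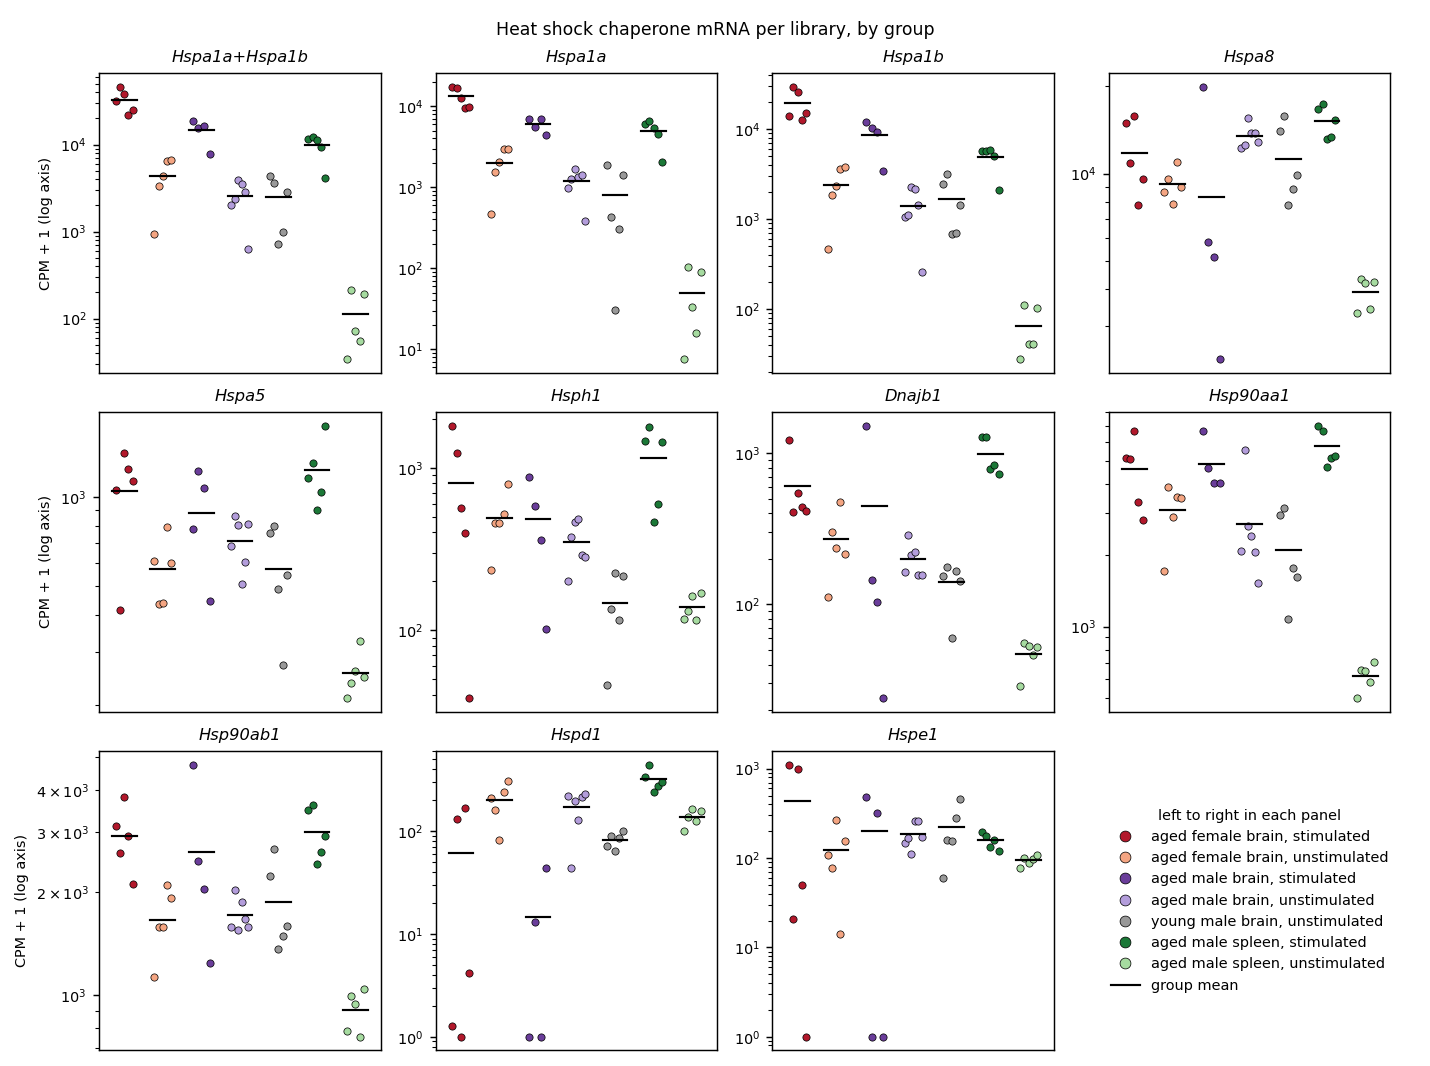
CPM + 1 of each member and of the summed copies (log axis) in each of the 35 libraries, with 1 panel per gene, groups from left to right as in the legend and a black line at each group mean. In the panel of the sum, the unstimulated spleen libraries at 33.4 to 212 CPM lie below all the others. For Hspd1 and Hspe1 some stimulated brain libraries lie at 0.

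The split of counts between the copies varied among libraries. Hspa1a held between 4.14% and 59.96% of the counts of the pair, and Hspa1b had more counts than Hspa1a in 28 of 35 libraries. The lowest shares were in young male brain, where Hspa1a had 1877, 424, 29.6, 303 and 1419 CPM and Hspa1b 2428, 3157, 684, 693 and 1437 CPM. Replicate 4 there had 29.6 CPM of Hspa1a beside 684 CPM of Hspa1b. In stimulated spleen the share of Hspa1a was between 47.4% and 53.8%. As RSEM divided the shared reads, values of the single copies are uncertain, and the sum is the safer measure.

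**Figure D3:**
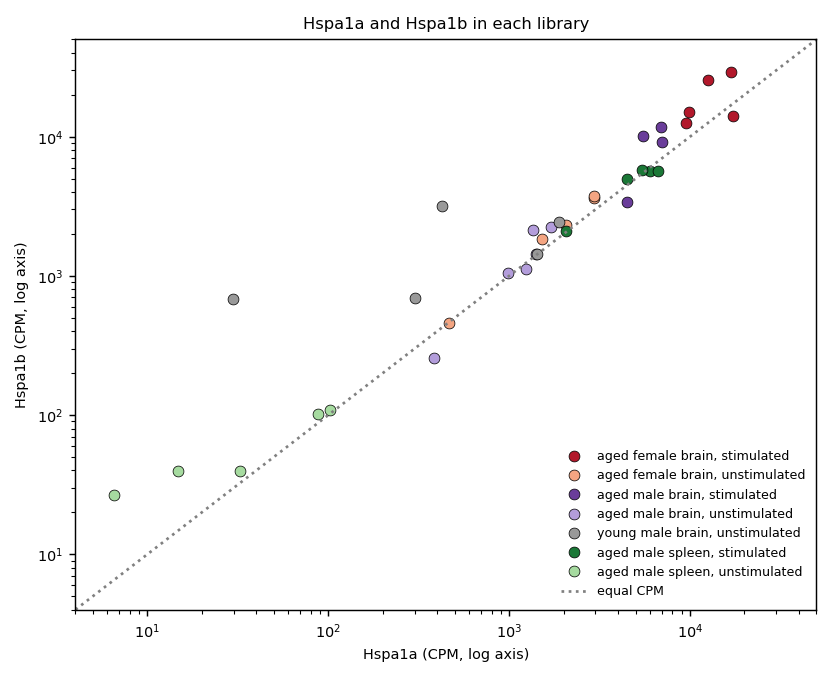
CPM of Hspa1b (vertical, log axis) against Hspa1a (horizontal, log axis), with 1 point per library coloured by group and a dotted line where both are equal. Most points lie near or above the line, and the points farthest above it are young male brain replicates 3 and 4.

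In aged male spleen, all 10 chaperones were higher in stimulated than in unstimulated cells. The background was high too, since 12.6% of the 11107 genes tested were called higher at an adjusted p under 0.05. The median log2 fold change was 2.63 over the members and -0.073 over all genes tested. The inducible Hsp70 copies rose most. Hspa1a had 5976, 6612, 5453, 4505 and 2065 CPM in stimulated spleen, against 6.56, 103, 32.5, 14.8 and 87.9 CPM in unstimulated spleen. Hspa1b had 5657, 5682, 5768, 5001 and 2116 CPM in stimulated spleen, against 26.8, 109, 39.7, 39.4 and 101 CPM in unstimulated spleen. The lowest stimulated library, replicate 40, whose level of Hspa1b stood apart from the other 4, was still far above every unstimulated one for both copies. The log2 fold change of the sum was 6.41 ± 0.61, adjusted p = 3.77e-05, that of Hspa1a was 6.62 ± 0.83 and that of Hspa1b was 6.23 ± 0.49. An exact two-sided permutation test of the sum gave p = 0.00794, the smallest that 5 against 5 libraries allow, and 0.0119 after adjustment over 9 such tests.

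The partners of Hsp70 were higher too. Dnajb1, the J-domain protein that delivers clients to the inducible Hsp70, had 1286, 1278, 786, 829.2 and 728 CPM in stimulated spleen, against 28.0, 54.3, 51.8, 45.5 and 51.3 CPM in unstimulated spleen (log2 fold change 4.38 ± 0.24, adjusted p = 6.61e-08). Hsph1 (Hsp110), a nucleotide exchange factor of Hsp70, had 1465, 1773, 462, 597 and 1441 CPM in stimulated spleen, against 116, 130.4, 161, 114 and 169 CPM in unstimulated spleen (3.03 ± 0.35, adjusted p = 1.13e-04). Stimulated replicates 38 and 39 lay well below the other 3 for Hsph1, and above all unstimulated libraries. Hspa8 had 16662, 17354, 13184, 13377 and 15212 CPM in stimulated spleen, against 3315, 4350.2, 4207, 3439 and 4232 CPM in unstimulated spleen (1.92 ± 0.12, adjusted p = 2.60e-07). Hspa5, the ER Hsp70 also called BiP, had 1156, 1299, 905, 1036 and 1735 CPM in stimulated spleen, against 209, 235, 259, 327 and 246 CPM in unstimulated spleen (2.24 ± 0.19, adjusted p = 3.90e-06). For all 10 members every stimulated library lay above every unstimulated one, as for 10.9% of genes tested.

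Among the Hsp90 genes the inducible one changed more. Hsp90aa1 had 7019.9, 6666, 4719, 5108 and 5217 CPM in stimulated spleen, against 499.8, 657, 648, 586 and 707 CPM in unstimulated spleen (3.18 ± 0.15, adjusted p = 1.92e-08). Hsp90ab1 had 3499, 3613, 2415, 2629.7 and 2923 CPM in stimulated spleen, against 782, 995, 939, 753 and 1039 CPM in unstimulated spleen (1.71 ± 0.14, adjusted p = 4.03e-06). The 95% intervals of these fold changes, 2.86 to 3.50 for Hsp90aa1 and 1.40 to 2.02 for Hsp90ab1, did not overlap, and the difference itself was not tested. The mitochondrial pair changed least. Hspd1 (Hsp60) had 333, 445, 239.9, 278 and 301 CPM in stimulated spleen, against 100.4, 136, 164, 125 and 158 CPM in unstimulated spleen (1.19 ± 0.18, adjusted p = 6.44e-04). Hspe1 (Hsp10), which forms the lid of that chaperonin, had 119.8 to 193 CPM in stimulated spleen, against 76.4 to 106 CPM in unstimulated spleen (0.72 ± 0.15, adjusted p = 0.00432). The call on Hspe1 was lost with library totals in place of scaling factors (log2 fold change 0.070, adjusted p = 0.741), where the median of all genes tested was -0.73, and in a fit of all 35 libraries, where the call on Hspd1 was lost too.

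**Figure D4:**
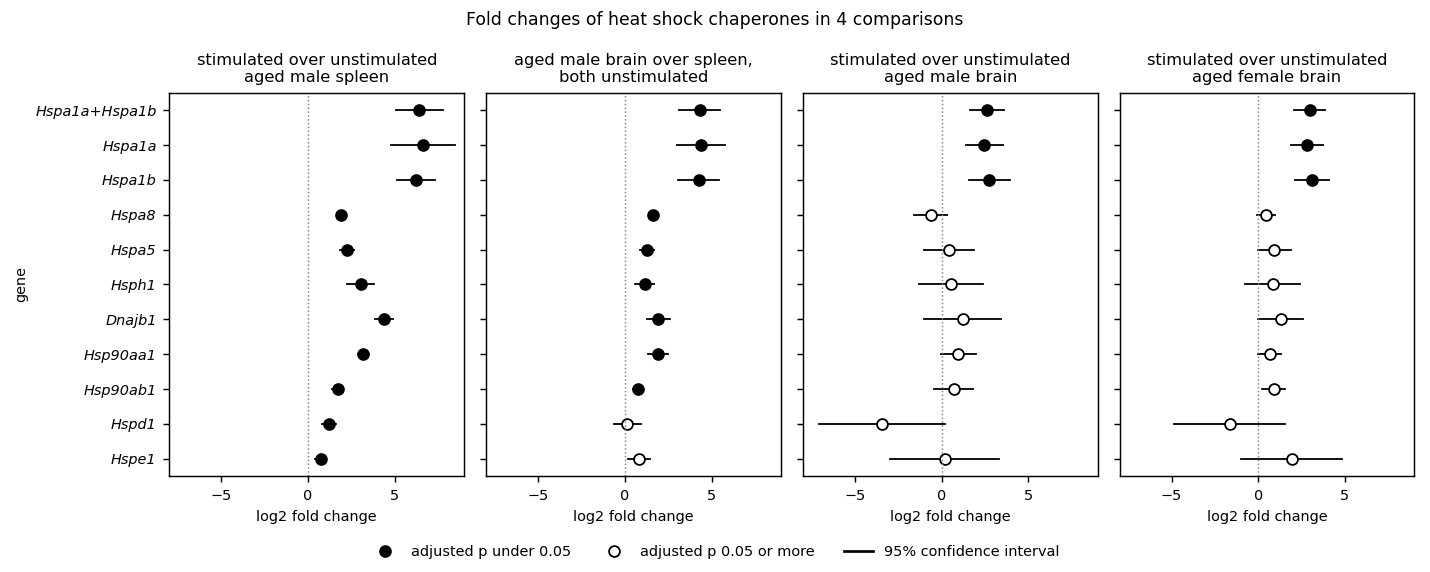
Log2 fold changes (horizontal axis, bars are 95% confidence intervals) of the summed copies and the 10 members in 4 comparisons, from left to right stimulated over unstimulated aged male spleen, aged male brain over aged male spleen in unstimulated cells, and stimulated over unstimulated brain of aged males and of aged females. Filled circles have an adjusted p under 0.05. All circles are filled in the first panel, and only those of the copies and their sum in both panels of stimulated brain.

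Without stimulation, chaperone mRNA was higher in aged male brain than in aged male spleen. Of the 10 members 8 were called higher and none lower, where 3.35% of 11040 genes tested were called higher. The median log2 fold change was 1.44 over the members and 0.31 over all genes tested. The copies again led. Their sum had 639, 2604 and 3952 CPM as lowest, median and highest of 6 libraries in brain, against 33.4, 212, 72.2, 54.2 and 189 CPM in spleen (log2 fold change 4.32 ± 0.55, adjusted p = 2.76e-04). Brain replicate 12, with 639 CPM, was the lowest brain library, and it lay above the highest spleen library. An exact permutation test gave p = 0.00216, the smallest that 6 against 5 libraries allow, and 0.00974 after adjustment over the 9 tests.

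Hspa8 had 12269, 13306 and 15548 CPM in brain, against 3315, 4350.2, 4207, 3439 and 4232 CPM in spleen (1.59 ± 0.099, adjusted p = 1.74e-07). Its brain values were close together, and the lowest was far above the highest spleen value. Hsp90aa1 had 1530.4, 2238 and 5562 CPM in brain, against 499.8 to 707 CPM in spleen (1.93 ± 0.27, adjusted p = 5.29e-04). Dnajb1 had 156, 187 and 287 CPM in brain, against 28.0 to 54.3 CPM in spleen (1.92 ± 0.31, adjusted p = 0.00189). Hspa5 had 507, 743 and 859 CPM in brain, against 209 to 327 CPM in spleen (1.28 ± 0.19, adjusted p = 9.28e-04). For each of these the groups did not overlap. Hsph1 (1.14 ± 0.27, adjusted p = 0.0123) and Hsp90ab1 (0.74 ± 0.14, adjusted p = 0.00452) were called as well, but not with library totals in place of scaling factors (0.58 and 0.19, where the median of all genes was -0.24), with upper quartile scaling (0.60 and 0.20), with only genes of at least 10 counts in every library, or in a fit of all 35 libraries.

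The mitochondrial chaperonin genes were not called between the tissues. Hspd1 had 43.2, 206 and 228 CPM in brain, against 100.4, 136, 164, 125 and 158 CPM in spleen (0.15 ± 0.37, adjusted p = 0.914, 95% interval -0.65 to 0.94), and the groups overlapped. Hspe1 had 111, 167 and 258 CPM in brain, against 76.4, 98.2, 88.0, 96.2 and 106 CPM in spleen (0.81 ± 0.30, adjusted p = 0.156, 95% interval 0.17 to 1.45). Its groups did not overlap, so that 9 of the 10 members had all brain libraries above all spleen libraries, where 4.48% of genes tested did. A fit of all 35 libraries called 4 of the 10 members, Hspa1a, Hspa1b, Hspa8 and Hsp90aa1. Markers of other cells were looked at in both tissues. Markers of other brain cells summed to 12.4 to 783 CPM in brain, with Mog and Cldn5 at 0, against 3.20 to 8.49 CPM in spleen. Microglia markers summed to 1.94 to 439 CPM in brain, with Aif1 and Trem2 at 0, against 59.8 to 93.2 CPM in spleen. Myeloid cell markers summed to 5.71 to 443 CPM in brain, against 46.5 to 84.8 CPM in spleen, NK and CD4 T cell markers to 0 to 12.4 CPM in brain, against 11.7 to 65.8 CPM in spleen, and red blood cell markers to 0.143 to 0.824 CPM in brain, against 0.596 to 123 CPM in spleen. Their part in the chaperone results was not tested.

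Unstimulated brain cells did not reach the level of stimulated spleen cells for most members. In that comparison, which shares its brain libraries with the one above and its spleen libraries with the stimulation of spleen, 7 of 10 members were called lower in brain, where 2.39% of 9926 genes tested were called lower. The sum of the copies differed by -2.04 ± 0.35, adjusted p = 0.00440, with 639 to 3952 CPM in unstimulated brain, against 4181 to 12294 CPM in stimulated spleen, and the groups did not overlap. It was not called without a low-count filter (adjusted p = 0.0535). No overlap in this direction was found for 5 of the 10 members and for 5.18% of genes tested. Dnajb1 differed by -2.40 ± 0.24, adjusted p = 5.02e-05 and Hsph1 by -1.82 ± 0.34, adjusted p = 0.00647. Hspa8 was close, with 12269, 13306 and 15548 CPM in unstimulated brain, against 16662, 17354, 13184, 13377 and 15212 CPM in stimulated spleen (-0.27 ± 0.11, adjusted p = 0.230, 95% interval -0.49 to -0.043), and was not called. Hspd1 (-0.98 ± 0.37, adjusted p = 0.203) and Hspe1 (0.15 ± 0.31, adjusted p = 0.882) were not called either. The calls on Hsp90aa1 (-1.20 ± 0.25, adjusted p = 0.0106) and Hspa5 (-0.89 ± 0.20, adjusted p = 0.0166) were lost when some single libraries were left out, brain replicates 7, 9, 10 or 11 for Hsp90aa1, and brain replicates 7, 10 or 11 or spleen replicates 37 or 40 for Hspa5, with adjusted p-values of at most 0.0674. A fit of all 35 libraries made 3 calls, on Hspa1a, Hspa1b and Dnajb1.

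In aged male brain, stimulated cells had more mRNA of the inducible Hsp70 copies, and no other member was called at the settings used throughout. The sum had 18663, 15650.5, 16204 and 7847 CPM in stimulated brain, against 639, 2604 and 3952 CPM (lowest, median and highest of 6) in unstimulated brain. All 4 stimulated libraries lay above all 6 unstimulated ones, as they did for 2 of the 10 members and for 2.03% of genes tested. The log2 fold change was 2.63 ± 0.46, adjusted p = 0.00510, with 2.46 ± 0.50 for Hspa1a and 2.75 ± 0.56 for Hspa1b. These 2 of 10 members compare with 1.75% of 7540 genes tested that were called higher, while 36.4% were called lower. In both counts the 2 members are the copies, which share many reads, so they are not separate calls. The median log2 fold change over all genes tested was -2.62, and that over the members 0.62. Without a low-count filter Hspa1a was not called (adjusted p = 0.0755). The exact permutation test of the sum gave p = 0.00476, the smallest that 4 against 6 libraries allow, and 0.0119 after adjustment.

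The other members spread widely among the 4 stimulated libraries. Dnajb1 had 1521, 144, 103 and 23.1 CPM in stimulated male brain, against 156, 187 and 287 CPM in unstimulated aged male brain (1.21 ± 1.06, adjusted p = 0.418). Replicate 19, the deepest of these 4 libraries, was far above the other 3, and without it the log2 fold change was -1.08. That library also had the highest summed markers of CD8 T cells (485 CPM, group median 154) and of other brain cells (3055 CPM, group median 710). Its mitochondrial share was the lowest, at 38.5%. The part of these in its chaperone levels was not tested. Hspa8 had 19846, 5840.1, 5179.6 and 2306 CPM in stimulated male brain, against 12269, 13306 and 15548 CPM in unstimulated aged male brain (-0.63 ± 0.45, adjusted p = 0.312). Hsp90aa1 had 6649.9, 4637, 4012 and 4032 CPM in stimulated male brain, against 1530.4, 2238 and 5562 CPM in unstimulated aged male brain (0.97 ± 0.47, adjusted p = 0.123). In both cases the groups overlapped. Without stimulated replicate 19, Hspa8 was called lower (-1.52, adjusted p = 0.0154), and without unstimulated replicate 8, Hsp90aa1 was called higher (1.30, adjusted p = 0.0270). Hsp90ab1 (0.70 ± 0.53), Hsph1 (0.54 ± 0.87) and Hspa5 (0.43 ± 0.70) were not called, with adjusted p-values between 0.336 and 0.685. Hsp90aa1 was also called higher with DESeq2's size factors (1.23, adjusted p = 0.0440), with only genes of at least 10 counts in every library (1.05, adjusted p = 0.0373) and with library totals without mitochondrial genes (1.64, adjusted p = 0.0176). With limma voom and quality weights 5 members were called, Hspa1a, Hspa1b and Hsp90aa1 higher and Hspd1 and Hspe1 lower.

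In aged female brain the called members were Hspa1a and Hspa1b too. The sum had 31386, 46083, 38108, 22093 and 24869 CPM in stimulated brain, against 927, 3376, 4386, 6559.6 and 6670.4 CPM in unstimulated brain. The groups lay far apart, although unstimulated replicate 13 was well below the other 4. The log2 fold change of the sum was 2.96 ± 0.42, adjusted p = 0.00122, with 2.82 ± 0.43 for Hspa1a and 3.07 ± 0.46 for Hspa1b. Here 1.92% of 6305 genes tested were called higher and 4.17% lower, and the median was -0.41 over all genes and 0.91 over the members. The exact permutation test of the sum gave p = 0.00794, the smallest that 5 against 5 libraries allow, and 0.0119 after adjustment. With library totals in place of scaling factors the median of all genes was -1.81. Hspa1a then had 1.44 and was not called (adjusted p = 0.0510), and Hspa8 was called lower (-0.99, adjusted p = 0.0330). When the mitochondrial genes were also left out, the calls were Hspa1a and Hspa1b again. They were also the calls without stimulated replicates 26 and 27, whose titles lack hyphens (2.86 for Hspa1a and 3.16 for Hspa1b).

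Hsp90ab1 had 3130.1, 2604, 3806, 2934 and 2116 CPM in stimulated female brain, against 1128, 1585, 1584, 2105 and 1919.7 CPM in unstimulated female brain. All stimulated libraries lay above the unstimulated ones, as for the copies and for 3.65% of genes tested, but the difference did not pass the threshold (0.88 ± 0.31, adjusted p = 0.133). Dnajb1 had 1219, 409, 541, 439 and 414 CPM in stimulated female brain, against 111, 299.7, 237, 477 and 215 CPM in unstimulated female brain (1.28 ± 0.60, adjusted p = 0.314), with stimulated replicate 23 far above the rest. Hsph1 had 1812, 1227, 567, 394 and 37.3 CPM in stimulated female brain, against 234, 458, 458, 517 and 792 CPM in unstimulated female brain (0.84 ± 0.74, adjusted p = 0.673). Its stimulated libraries spanned both ends of the range. Hspa8 (0.43 ± 0.24), Hspa5 (0.93 ± 0.45) and Hsp90aa1 (0.65 ± 0.32) had adjusted p-values between 0.336 and 0.436 and overlapping groups. Upper quartile scaling called 5 members higher, adding Hsp90aa1, Hsp90ab1 and Hspa8 to the copies, and limma voom called Hsp90ab1 higher and Hspd1 lower beside the copies.

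Hspd1 and Hspe1 were patchy in stimulated brain. The 9 stimulated brain libraries had Hspd1 at 3 counts or fewer in 5 and Hspe1 in 3, with both in 1, female replicate 27. None of the other 26 libraries had either gene that low. In stimulated female brain Hspd1 had 0.283, 131, 0, 169 and 3.20 CPM and Hspe1 1110.2, 19.6, 979, 48.5 and 0 CPM, so replicates 23 and 25, with at most 1 count of Hspd1, had the highest Hspe1. In stimulated male brain Hspd1 had 0, 11.999, 0 and 43.1 CPM and Hspe1 482, 0, 315 and 0 CPM, and replicates 19 and 21, with no count of Hspd1, had the highest Hspe1. The genes lie head to head, and their annotated 5′ ends overlap. The use of strand in counting is not given in the sources used here, so reads of this overlap cannot be assigned. Neither gene was called after stimulation of male brain (Hspd1 -3.44 ± 1.73, adjusted p = 0.134, and Hspe1 0.17 ± 1.49, adjusted p = 0.945) or of female brain (Hspd1 -1.66 ± 1.51, adjusted p = 0.685, and Hspe1 1.92 ± 1.37, adjusted p = 0.585), although all 4 stimulated male libraries had less Hspd1 than all 6 unstimulated ones, as for 35% of genes tested. Without stimulated male replicate 22, Hspd1 was called lower (-5.46, adjusted p = 0.0462). Without the 3 stimulated brain libraries under 3 M counts, Hspd1 was called lower in male brain as well (adjusted p = 0.00284), with 0 counts in both remaining stimulated libraries, and so it was in a fit of all 35 libraries (-3.67, adjusted p = 0.0270).

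Between stimulated male brain and stimulated spleen, no member was called, at a background of 48.5% of 9135 genes called in either direction, nearly all of them lower in brain (46.7%). With edgeR, 2 members had an unadjusted p under 0.05, Hspa1b and Hspd1, and DESeq2 called 1, Hspd1, lower. The sum of the copies had 18663, 15650.5, 16204 and 7847 CPM in stimulated male brain, against 11633, 12294, 11221, 9506 and 4181 CPM in stimulated spleen. The groups overlapped through male brain replicate 22, the shallowest library of the series (0.78 ± 0.36, adjusted p = 0.109), and without it the sum was called higher in brain (0.93, adjusted p = 0.0494). The median log2 fold change was -0.17 over the members and -3.02 over all genes tested. Hsp90aa1 had 6649.9, 4637, 4012 and 4032 CPM in stimulated male brain, against 7019.9, 6666, 4719, 5108 and 5217 CPM in stimulated spleen (95% interval of the log2 difference -0.66 to 0.56). Hspd1 had 0, 11.999, 0 and 43.1 CPM in stimulated male brain, against 333, 445, 239.9, 278 and 301 CPM in stimulated spleen (-4.31 ± 1.83, adjusted p = 0.0832). Its groups did not overlap, as for 54.7% of genes in this direction. Single libraries decided some calls. Without male brain replicate 19, Dnajb1 (-3.30, adjusted p = 0.00496) and Hspa8 (-1.62, adjusted p = 0.00432) were called lower, and without replicate 22, Hspa1b was called higher (1.24, adjusted p = 0.0152) and Hspd1 lower (-6.22, adjusted p = 0.0297). Without the libraries under 3 M counts Hspa1b (1.23) and Hspe1 (1.46) were called higher and Hspd1 lower in brain. Only stimulated male brain replicates 19 and 21 remain there. The libraries left out, replicates 20 and 22, are those with 0 counts of Hspe1, so its call rests on their removal.

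The response to stimulation itself was smaller in male brain than in spleen for most members, in a test of the difference of the responses over the 4 groups. Of the 10 members 8 were lower, where 35.7% of 12117 genes tested were. The median difference was -2.60 over the members, less far below 0 than the -4.04 over all genes tested. The sum of the copies differed by -3.91 ± 0.74, adjusted p = 3.34e-04, Dnajb1 by -3.22 ± 1.05, adjusted p = 0.0199 and Hsp90aa1 by -2.35 ± 0.51, adjusted p = 0.00107. The difference of responses is the brain over spleen difference in stimulated cells minus that in unstimulated cells. Fitted separately, these 2 were 0.78 and 4.32 for the sum, -0.050 and 1.93 for Hsp90aa1, and -0.96 and 1.92 for Dnajb1. For these the larger part lies in the higher level of unstimulated brain. For Hspd1, at -4.31 and 0.15, it lies in stimulated cells. What set the levels of unstimulated cells was not tested. Hsp90ab1 (-1.11 ± 0.51, adjusted p = 0.0890) and Hspe1 (-0.61 ± 1.499, adjusted p = 0.797) were not called, and Hsp90ab1 was called lower without stimulated brain replicate 19 (-1.58, adjusted p = 0.00850). DESeq2 size factors in edgeR left 5 members called, and library totals without mitochondrial genes 3, which were Hspa1a, Hspa1b and Hspa8.

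Neither age nor sex gave a call on a member. Between aged and young male brain, both unstimulated, no member and no gene of 8068 (0%) was called by edgeR, none of the members by DESeq2 or limma voom, and 2 members, Hsph1 and Hspa8, had an unadjusted p under 0.05. Hsph1 had 199, 331 and 480.5 CPM in aged brain, against 45.1, 135, 223, 114 and 213 CPM in young brain (log2 fold change 1.25 ± 0.47, adjusted p = 0.956). The groups overlapped. The sum of the copies had 639, 2604 and 3952 CPM in aged brain, against 4305, 3581, 714, 995 and 2856 CPM in young brain (0.085 ± 0.49, adjusted p = 0.993, 95% interval -0.98 to 1.15). Both groups spread widely and overlapped through most of their range.

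In unstimulated brain, aged females had 927, 3376, 4386, 6559.6 and 6670.4 CPM of the summed copies, against 639, 2604 and 3952 CPM in aged males (0.94 ± 0.47, adjusted p = 0.999, 95% interval -0.089 to 1.96). The ranges overlapped. No member was called, at a background of 0.15% of 8691 genes, and 2 members, Hspa1a and Hspa8, had an unadjusted p under 0.05. DESeq2 called 0 members and limma voom 1, Hspa8. All 5 female libraries had less Hspa8, 8616, 9571, 7880.3, 10943 and 9008 CPM, than all 6 male ones, 12269, 13306 and 15548 CPM (-0.40 ± 0.12, adjusted p = 0.439), where 1.27% of genes had no overlap in this direction. In stimulated brain the sum had 31386, 46083, 38108, 22093 and 24869 CPM in females, against 18663, 15650.5, 16204 and 7847 CPM in males. Every female library lay above every male one, as for 2 of the 10 members, the copies themselves, and for 2.72% of genes. The edgeR test did not pass (0.89 ± 0.29, adjusted p = 0.383), no gene of 3159 (0%) was called, DESeq2 and limma voom called no member, and 2 members, Hspa1a and Hspa1b, had an unadjusted p under 0.05. The exact permutation test of this single value gave p = 0.00794, the smallest that 5 against 4 libraries allow, and 0.0119 after adjustment over the 9 tests, for a difference of 1.18 in mean log2(CPM + 1). The CD8 T cell markers, at 684 to 1389 CPM in stimulated female and 108 to 485 CPM in stimulated male brain, moved with this difference, and their part in it was not tested.

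Other genes of the pathway followed the members in part. Of 19 tested Hsp70 partners and exchange factors, 11 were higher in stimulated than in unstimulated spleen, where 12.6% of all genes were, and none lower (median log2 fold change 1.15, against -0.073 over all genes). Among them Dnajb4, a J-domain protein, averaged 182 ± 37.7 CPM in stimulated and 13.3 ± 2.89 CPM in unstimulated spleen (SD, n = 5 each; 3.75 ± 0.21, adjusted p = 7.11e-08), and Bag3, an exchange factor that HSF1 induces, averaged 38.03 ± 9.34 CPM in stimulated and 5.75 ± 0.536 CPM in unstimulated spleen (2.69 ± 0.20, adjusted p = 1.32e-06). Hspa4l, a relative of Hsph1, differed by 2.18 ± 0.36, adjusted p = 0.00116. In unstimulated brain against spleen, 2 of 20 were higher, where 3.35% of all genes were, Dnajb6 (1.26 ± 0.26, adjusted p = 0.00510) and Dnaja1 (0.94 ± 0.22, adjusted p = 0.0136). There 1 of the 20 was lower, Dnajb2, named after its value was seen, beside 444 of 11040 genes tested. After stimulation none of these genes was called higher in male brain (4 of 18 lower, against 36.4% of all genes) or in female brain (1 of 16 lower, against 4.17%).

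Hsp90 co-chaperones and the other lists are read against the 12.6% of all genes higher in stimulated spleen and the 3.35% higher in unstimulated brain. Called lower were 680 of 11107 genes tested in stimulated spleen and 444 of 11040 in unstimulated brain. Of 11 co-chaperones tested, 3 were higher in stimulated spleen, Ahsa2 (0.99 ± 0.22, adjusted p = 0.00785), Stip1, which links Hsp70 to Hsp90 (0.85 ± 0.18, adjusted p = 0.00542), and Ptges3, the co-chaperone p23 (0.59 ± 0.15, adjusted p = 0.0172), and none was called between the unstimulated tissues. Of the 8 cytosolic chaperonin subunits 1, Cct2, was higher in stimulated spleen, a share near that of all genes (0.48 ± 0.15, adjusted p = 0.0457). Of 7 mitochondrial chaperones and proteases, Hspa9, the mitochondrial Hsp70, was higher in stimulated spleen (0.92 ± 0.20, adjusted p = 0.00640) and in unstimulated brain against spleen (1.32 ± 0.27, adjusted p = 0.00491), whereas Dnaja3 (-0.91 ± 0.21, adjusted p = 0.00899) and Clpx (-0.69 ± 0.19, adjusted p = 0.0215) fell in stimulated spleen. Of 20 genes of ER chaperones and the unfolded protein response, 6 were higher and 1 lower in stimulated spleen, with Atf4, a factor that activates stress response genes, at 3.29 ± 0.25, adjusted p = 1.68e-06 and Dnajb9, a partner of Hspa5, at 2.40 ± 0.15, adjusted p = 2.38e-07, and Sel1l lower at -0.80 ± 0.21, adjusted p = 0.0192. In unstimulated brain against spleen 4 of the 20 were higher, Dnajb9 (2.36 ± 0.49, adjusted p = 0.00548), Atf4 (2.00 ± 0.38, adjusted p = 0.00485), Canx (0.99 ± 0.29, adjusted p = 0.0481) and Calr, the last named after its value was seen. A mixed list of heat shock factors and other genes with heat shock names had 4 tested genes, Hsf1, Hsf2, Hsbp1 and Hspb11. None of them was called in either comparison. After stimulation of male brain no gene of these 5 lists was called higher. Called lower there were 2 of 11 co-chaperones, 4 of 8 chaperonin subunits, 1 of 6 mitochondrial genes, 7 of 19 ER genes and 2 of 3 genes of the mixed list, beside 36.4% of all genes. After stimulation of female brain none of the 5 lists had a call in either direction.

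Immediate early genes, which T cell activation induces within the first hours, were set beside the chaperones. All 12 were higher in stimulated spleen, beside 12.6% of all genes. There Nr4a1 averaged 2326 ± 576 CPM, against 4.02 ± 1.10 CPM in unstimulated spleen (SD, n = 5 each; 9.15 ± 0.29, adjusted p = 4.92e-10). In unstimulated brain against spleen 8 of 12 were higher, beside 3.35% of all genes, with Nr4a1 at 855 ± 661 CPM in brain (n = 6; 7.53 ± 0.54, adjusted p = 7.63e-07) and Fosb differing by 3.80 ± 0.54, adjusted p = 7.36e-04. After stimulation, 2 of 11 were higher in male brain, beside 1.75% of all genes, and 5 of 11 in female brain, beside 1.92%. Over all 35 libraries and 6464 genes with a mean of at least 10 CPM, the 5 genes whose log2(CPM + 1) was most correlated with that of the summed copies included Nr4a1 (Pearson r = 0.917), Nr4a3 (0.909), Fosl2 (0.886) and Fos (0.880). Among the members r was 0.912 for Hsp90aa1, 0.861 for Hsp90ab1, 0.753 for Hspa5, 0.727 for Dnajb1, 0.563 for Hspa8 and 0.511 for Hsph1, and it was -0.102 for Hspe1 and -0.396 for Hspd1. These values describe the 35 libraries, which fall into 7 groups and differ in depth, and no test was made of them.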

How the data were processed

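Total RNA of sorted CD8 T cells was sequenced in 35 libraries. Per the submitters' processing notes, reads were aligned to mm10 with Bowtie2 2.2.0 and counted with RSEM 1.2.12. Neither the annotation nor strandedness of counting is given in the sources used here. The authors deposited a table of whole-number counts per gene, used for all tests. The deposited files of single libraries hold RSEM expected counts (rounded for an alternative), the authors' TPM, used for levels between genes, and FPKM from the authors, not used. Table and expected counts differed by at most 0.5.

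Groups were taken from the sample titles. Counts were tested with edgeR 4.0.16 (R 4.3.3; TMM scaling, filterByExpr with a minimum count of 10, robust quasi-likelihood test) on the libraries of the groups compared, and log2 fold changes (± SE) of the deposited counts are called at a Benjamini-Hochberg adjusted p under 0.05 over all genes tested. CPM were scaled by TMM over all 35 libraries. The sum of the copies was fitted as 1 gene and tested by exact permutation (Python 3.11.15, adjustment by statsmodels 0.14.6). Alternatives used DESeq2 1.42.0, limma 3.58.1 and other scalings, filters and library sets. The scripts were tested on simulated data in which as many genes were raised as lowered by known folds. A broad shift like that of stimulated brain was not simulated, so the simulation does not cover scaling there. Replicates differed beyond sampling noise (chi-square per degree of freedom of at least 13.04).

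Members, gene lists and comparisons were chosen with earlier results of these data known. Other genes named are, per list, comparison and direction, up to 3 called genes with the largest change and a mean of at least 10 CPM, and genes among the 5 most correlated with the summed copies. The results of 1 marker list and 1 correlated gene are not reported here.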

Additional observations from a re-analysis of the deposited data

Results flagged for a closer look

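Within groups, 10 values of the 77 looked at (11 genes or sums in 7 groups, on log2(CPM + 1)) lay apart from the rest of their group by Dixon's test at the 95% level, which flags about 1 in 20 groups by chance. Unstimulated aged male brain replicate 12 was lowest for Hspa1a (383 CPM), Hspa1b (256 CPM) and their sum (639 CPM). Stimulated spleen replicate 40 was lowest for Hspa1b (2116 CPM) and the sum (4181 CPM). The sum is made of the copies, which share many reads, so these flags partly repeat each other. The 10 flags are therefore not separate events to set against 1 in 20. Dnajb1 was highest in stimulated female brain replicate 23 (1219 CPM), lowest in young male brain replicate 4 (58.9 CPM) and lowest in unstimulated spleen replicate 30 (28.0 CPM). Hspd1 was lowest in unstimulated aged male brain replicate 8 (43.2 CPM), and Hspa5 in stimulated female brain replicate 24 (414 CPM). Leaving out any of these libraries changed no call on the gene concerned in the stimulation of spleen, the stimulation of brain or the comparison of unstimulated brain with unstimulated spleen.

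The stimulation response of aged male brain differed from that of aged male spleen, by a test of the difference itself (edgeR, 4 groups, adjusted over 12117 genes), in 8 members and the sum. On the log2 scale, as brain minus spleen, it was -4.85 for Hspd1, -4.28 for Hspa1a, -3.91 for the summed copies, -3.58 for Hspa1b, -3.22 for Dnajb1, -2.63 for Hspa8, -2.57 for Hsph1, -2.35 for Hsp90aa1 and -1.93 for Hspa5. The median over all genes tested was -4.04, with Hspd1 and Hspa1a below it and the other 7 values above. The shares of mitochondrial counts and the marker levels of stimulated brain given above moved with this contrast, and their part in it was not tested.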

How the results depend on the processing

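The calls on the summed copies in the stimulation of spleen, of male brain and of female brain, in unstimulated brain against unstimulated spleen and in the difference of responses held under each alternative that could be fitted. In unstimulated brain against stimulated spleen the sum was not called without a low-count filter (-1.96). In stimulated brain against stimulated spleen it was called with library totals without mitochondrial genes (1.12) and without stimulated male brain replicate 22, with a range of 0.55 to 0.93 when single libraries were left out. The exact permutation test of the sum passed for sex in stimulated brain (1.18), where edgeR did not.

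The number of called members was 8 to 10 for stimulation of spleen and 0 for age and for sex in stimulated brain under every alternative fitted, and it moved by over 1.5 times under some alternatives elsewhere. In unstimulated brain against unstimulated spleen a fit of all 35 libraries called 4, and it called 3 in unstimulated brain against stimulated spleen. In male brain limma voom called 5, and 1 was called without a filter. In female brain upper quartile scaling called 5 and limma voom 4. With the copies replaced by their sum 1 member was called in either brain. In stimulated brain against stimulated spleen, where the main count was 0, limma voom called 4, the set without libraries under 3 M counts 3, and DESeq2, the fit of all 35 libraries and library totals without mitochondrial genes 1 each, with 0 to 2 when single libraries were left out. The set without libraries under 3 M counts keeps only replicates 19 and 21 of stimulated male brain. For the difference of responses DESeq2's size factors left 5 and library totals without mitochondrial genes 3. For sex in unstimulated brain limma voom called 1. The cause of these changes was not tested.

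Some values changed sign, each of them for a member or sum not called in the main test. Their log2 fold changes follow. With DESeq2's size factors in edgeR these were Hsp90aa1 0.045 and Hsp90ab1 0.0089 for stimulated brain against stimulated spleen. With DESeq2's test these were Hsp90aa1 0.033 for stimulated brain against stimulated spleen. With a fit of all 35 libraries these were Hsp90ab1 -0.044 for sex in unstimulated brain, Hsp90ab1 0.15 and Hspa5 0.25 for sex in stimulated brain. With a minimum of 10 counts in every library these were Hspd1 -0.19 for unstimulated brain against unstimulated spleen, Hspa8 -0.088 for stimulation of female brain, Hspe1 -0.091 for unstimulated brain against stimulated spleen, Hspa5 0.068 for sex in unstimulated brain. With limma voom these were Dnajb1 -0.61 and Hspe1 -4.35 for stimulation of male brain, Hspe1 -0.85 for stimulation of female brain, Hspe1 -4.27 for stimulated brain against stimulated spleen, Hsp90ab1 -0.0058 for sex in unstimulated brain. With no low-count filter these were Hspa5 0.031 for sex in stimulated brain. With library totals only these were Hspd1 -0.37 for unstimulated brain against unstimulated spleen, Hspe1 -0.40 and Hspa5 -0.030 for stimulation of male brain, Hsp90aa1 -0.75, Hsp90ab1 -0.50, Dnajb1 -0.056, Hsph1 -0.49, Hspa8 -0.99 and Hspa5 -0.46 for stimulation of female brain, Hspa1a -0.15 and Hspe1 -0.18 for stimulated brain against stimulated spleen, Hsp90ab1 0.058 for age, Hspa5 0.19 for sex in unstimulated brain, Dnajb1 -0.016 and Hspa8 -0.014 for sex in stimulated brain. With library totals without mitochondrial genes these were Hspd1 -0.40 for unstimulated brain against unstimulated spleen, Hsp90aa1 0.35, Hsp90ab1 0.30 and Hspa5 0.13 for stimulated brain against stimulated spleen, Hsp90ab1 0.13 and Hspe1 0.33 for the difference of responses, Hsp90ab1 0.074 for age, Hspa5 0.20 for sex in unstimulated brain. With upper quartile scaling these were Hspd1 -0.37 for unstimulated brain against unstimulated spleen, Hspe1 -0.33 for unstimulated brain against stimulated spleen, Hsp90ab1 0.019 for age, Hspa5 0.13 for sex in unstimulated brain. With the libraries under 3 M counts left out these were Hsp90aa1 0.0059 and Hsp90ab1 0.28 for stimulated brain against stimulated spleen, Hspe1 0.58 for the difference of responses, Dnajb1 -0.40, Hspa8 -0.13 and Hspa5 0.016 for sex in stimulated brain. When single libraries were left out, the ranges were Dnajb1 -1.08 to 1.56 and Hspe1 -0.73 to 0.55 for stimulation of male brain, Hsp90aa1 -0.28 to 0.041, Hsp90ab1 -0.50 to 0.17 and Hspe1 -0.41 to 0.91 for stimulated brain against stimulated spleen, Hspa1b -0.44 to 0.077, Hsp90ab1 -0.17 to 0.036, Hspe1 -0.53 to 0.23 and the sum -0.15 to 0.32 for age, Hsp90ab1 -0.019 to 0.20 for sex in unstimulated brain, Hsp90ab1 -0.24 to 0.29, Dnajb1 -0.29 to 2.52, Hsph1 -0.11 to 1.01 and Hspa5 -0.17 to 0.22 for sex in stimulated brain.

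Library totals in place of scaling factors, the sum under the other alternatives, and leaving out shallow libraries were chosen after seeing the data. Upper quartile scaling could not be fitted for stimulation of male brain, stimulated brain against stimulated spleen or the difference of responses. No paired analysis was possible, because the labels do not state which libraries, if any, came from the same mouse. Replicate numbers do not repeat across the groups and cannot show it. Hspd1 and Hspe1 had 3 counts or fewer in some stimulated brain libraries, so their fold changes there rest on few counts.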
